A study of Mus musculus with 2 samples.

Results

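The complement genes described here were *C1qa*, *C1qb* and *C1qc*, which encode the chains of C1q, *C3*, *C4b* and *Cfb*, which encode the proteins that are cleaved as the cascade runs, *Cfp*, which encodes properdin, and *C3ar1* and *C5ar1*, which encode the receptors of the C3a and C5a peptides. These 9 genes were chosen by symbol among the 31053 genes of the count tables, of which 15902 had a UMI (unique molecular identifier, a tag that lets copies of 1 captured RNA be counted once), and all 9 had UMIs in both libraries. Complement is a cascade of plasma and tissue proteins. C1q binds antibody, dying cells or lipoproteins and starts the classical pathway through C4 and C2 to C3, and factor B and properdin carry the alternative pathway, in which properdin stabilizes the enzyme that cleaves more C3. Macrophages are a main source of C1q and of properdin in tissues, while the liver makes most of the circulating C3.

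Droplet-based scRNA-seq was performed on macrophages of the epididymal adipose tissue (ATMs) of male C57/BL6 mice aged 8 to 12 weeks (strain as labelled, C57BL/6JOlaHsd in the methods of the study). The control diet (CD) group was kept on a diet with 11% of energy from fat and the high-fat diet (HFD) group was given a diet with 58% of energy from fat overnight. The methods of the study name corn starch for the former diet and sucrose for the latter, so fat was not their only difference. Cells of 3 mice per diet were pooled and sorted as CD45+ cells that lacked lineage markers, had little or no Ly6C and carried F4/80. The methods of the study also list CD11b among the markers that the sorted cells carried. Each pool was made into 1 library. Diet and library therefore cannot be told apart, no difference between them could be tested, and fewer cells of a type and less RNA per cell cannot be told apart in a sum over a library.

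Sequencing depth was 15003119 UMIs for CD (4459 barcodes) and 9164686 UMIs for HFD (3163 barcodes). Cells with 200 to 3500 genes and at most 10% mitochondrial UMIs were kept, 2364 in CD and 2021 in HFD, and the median depth per kept cell was 4490.5 UMIs in CD and 2792 UMIs in HFD. The 7 pan-macrophage markers were all detected in both libraries (2315 and 1941 CPM, UMIs of a gene per 1000000 UMIs of the cells summed), while T or NK cell markers summed to 31 and 6 UMIs, B cell markers to 62 and 47 UMIs and neutrophil markers to 185 and 63 UMIs in CD and HFD, with *Cd3e*, *Ms4a1* and *Ly6g* at 0 in both. Stromal markers summed to 73.4 CPM in CD and 4.33 CPM in HFD. Of the 902 stromal UMIs of CD, 544 lay in cells with a UMI of *Plac8*, and 1 of these cells held 477 UMIs of the marker *Dcn*. Adipocyte markers summed to 341 and 266 CPM and dendritic cell markers to 203 and 182 CPM in CD and HFD. Among the kept cells 7 barcodes occurred in both libraries.

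Cells were gated by their UMIs of marker genes. *Timd4*+ and *Lyve1*+ cells (at least 1 UMI of these resident-macrophage genes) numbered 368 and 1172 in CD and 72 and 415 in HFD. *Folr2*+*Lyve1*- cells numbered 872 and 581, and *Ccr2*+ cells, with a receptor of recruited monocytes, numbered 1326 and 1131. Cells with at least 10 UMIs of *Lyz1*, a lysozyme gene high in monocyte-derived cells, numbered 555 and 672, and *Plac8*+ cells, with a gene of monocytes, numbered 42 and 73. The gates overlapped (42.4% of *Lyve1*+ and 95.7% of *Lyz1*-high CD cells were also *Ccr2*+), and a gate by a UMI or by 10 UMIs depends on depth, with medians from 4052.5 UMIs in *Lyve1*+ to 8205 UMIs in *Lyz1*-high cells of CD and from 2299 to 6609 in HFD. A gate could also differ in makeup between libraries. Of the *Timd4*+ cells 77.7% in CD and 38.9% in HFD were also *Lyve1*+. The 7 resident-macrophage markers summed to 7141 CPM in *Timd4*+ cells of CD and 3559 CPM in those of HFD. Ratios of HFD over CD within a gate therefore do not compare a fixed cell type.

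The C1q genes lie side by side on the minus strand of chromosome 4 (mm10, GRCm38), *C1qb* at 136880129 to 136886187, *C1qc* at 136889804 to 136893065 and *C1qa* at 136895917 to 136898803, a stretch of 18.7 kb. The promoter sequence of *C1qb* and *C1qc* is shown because these genes moved together, and that of *Cfp* because it moved the other way. Each is the part of a RefSeq window (GRCm38.p6, 250 bases before to 50 bases after the gene start) that lies before the annotated gene or its start, on the minus strand. Capitals mark GAGGAA, a core of PU.1-type sites, or its reverse complement TTCCTC, and TGCTGA, a half-site of MAF factors, or its reverse complement TCAGCA.

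*C1qb*, chr4:136886201-136886450: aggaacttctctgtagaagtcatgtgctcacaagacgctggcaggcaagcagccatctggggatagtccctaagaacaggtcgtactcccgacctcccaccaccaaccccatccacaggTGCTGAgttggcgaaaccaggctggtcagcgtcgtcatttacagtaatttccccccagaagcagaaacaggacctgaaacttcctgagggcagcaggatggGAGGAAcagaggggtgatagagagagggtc

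*C1qc*, chr4:136893066-136893164: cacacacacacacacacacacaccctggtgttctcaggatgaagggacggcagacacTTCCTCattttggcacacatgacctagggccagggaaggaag

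*Cfp*, chrX:20931556-20931805: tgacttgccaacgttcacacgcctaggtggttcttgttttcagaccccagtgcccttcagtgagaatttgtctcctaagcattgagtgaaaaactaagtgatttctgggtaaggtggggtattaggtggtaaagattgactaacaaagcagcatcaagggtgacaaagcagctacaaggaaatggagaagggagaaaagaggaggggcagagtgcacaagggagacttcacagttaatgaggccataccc

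Of 32851 windows of this length, 28.3% held GAGGAA and 19.5% held TGCTGA on either strand, so neither was rare. Windows were given for 6 of the 9 genes. *C1qb* held 1 copy of each, *C1qc* held 1 GAGGAA, *C3ar1*, *C5ar1* and *C3* each held 1 TGCTGA, and both GAGGAA copies of *Cfp* lay past the start and outside the stretch shown. These are matches of letters and say nothing of binding.

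C1q RNA was lower in the HFD library and graded from resident to monocyte-derived gates. Summed over kept cells *C1qa* was at 3851 CPM in CD and 2074 CPM in HFD, *C1qb* at 3965 and 2746 CPM, and *C1qc* at 2846 and 1616 CPM. The HFD over CD log2 ratios were -0.89, -0.53 and -0.82, so *C1qa* and *C1qc* were lower by more than 1.5-fold and *C1qb*, at 1.44-fold, was not. Together the 3 genes made up 1.07% of all UMIs in CD and 0.644% in HFD. Intervals given here and below are exact 95% intervals and cover counting error only, and that of the C1q sum ratio (-0.73) ran from -0.74 to -0.71.

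Among the CD gates the C1q sum was highest in *Lyve1*+ (14338 CPM) and *Timd4*+ cells (14155 CPM), whose intervals overlapped. It was 9513 CPM in *Folr2*+*Lyve1*-, 9083 CPM in *Ccr2*+, 5712 CPM in *Lyz1*-high and 4580.5 CPM in *Plac8*+ cells. The HFD gates followed the same order, at 10220 CPM in *Lyve1*+, 9796 CPM in *Timd4*+, 9135 CPM in *Folr2*+*Lyve1*-, 5525 CPM in *Ccr2*+, 4165 CPM in *Lyz1*-high and 3752 CPM in *Plac8*+ cells, with overlapping intervals only for the first pair. The step from *Folr2*+*Lyve1*- to *Ccr2*+ was thus small in CD and large in HFD, but these gates shared cells. Of the *Folr2*+*Lyve1*- cells 65.1% in CD and 49.7% in HFD were also *Ccr2*+. With each cell in 1 gate the C1q sum went from 12781 to 4087 CPM in CD and from 11591 to 5699 CPM in HFD, a large step in both. The cells then left in *Ccr2*+ had no UMI of *Folr2* or *Lyve1*, so this step also sets cells with *Folr2* against cells without it. The order of gates was then no longer shared. These *Ccr2*+ cells lay below *Lyz1*-high (5751 CPM) and *Plac8*+ cells (4580.5 CPM) in CD. In HFD they lay above both (4216 and 3752 CPM). For background, 9 CD barcodes with endothelial markers, which also held 11 UMIs of *Csf1r*, had C1q at 3816 CPM (3277 to 4418) and 4 HFD barcodes had it at 1809 CPM (781 to 3565), below the value of every gate of their library. Other such barcodes were not lower, with 4648 CPM in 2 CD barcodes with T or NK cell markers and 19974 CPM in 1 HFD barcode with B cell markers.

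**Figure D1:**
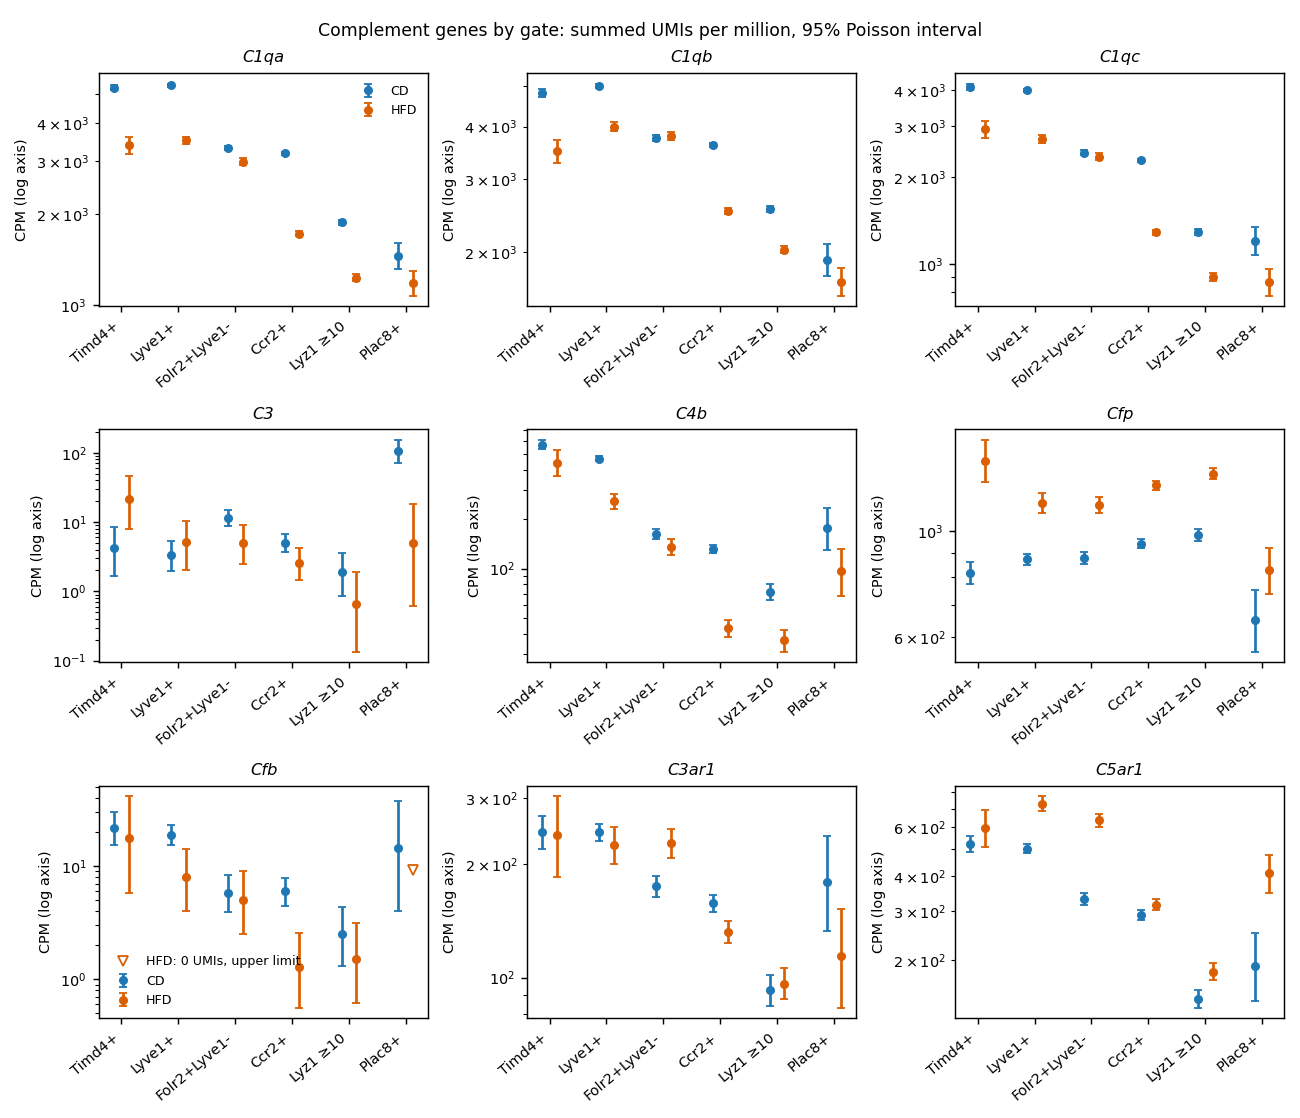
Summed UMIs of each gene relative to all UMIs of the gate (CPM, log axis) in the 6 gates of the CD and HFD libraries, with exact 95% Poisson intervals and an open triangle for the upper limit where no UMI was found. *C1qa*, *C1qb*, *C1qc*, *C4b* and *C5ar1* fell from the resident gates to *Lyz1* ≥10 UMIs, *Cfp* stayed between 652 and 1405 CPM, and *Cfp* and *C5ar1* were higher in HFD in all 6 gates.

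Within each gate the C1q difference between diets was smaller than in the whole library, if barely so in *Ccr2*+ cells, and smallest in *Folr2*+*Lyve1*- cells. The log2 ratio of the C1q sum was -0.53 in *Timd4*+, -0.49 in *Lyve1*+, -0.06 in *Folr2*+*Lyve1*-, -0.72 in *Ccr2*+, -0.46 in *Lyz1*-high and -0.29 in *Plac8*+ cells. With gates set on 1000 UMIs drawn from each cell the *Folr2*+*Lyve1*- value was -0.25. *C1qa* and *C1qc* were lower in HFD in 6 of 6 gates and *C1qb* in 5, the exception being *Folr2*+*Lyve1*- cells (3760.2 CPM in CD, 3799.6 CPM in HFD, log2 ratio 0.02 with an interval from -0.02 to 0.05). With each cell counted in 1 gate, by the order *Plac8*, *Lyz1*, *Timd4*, *Lyve1*, *Folr2* and then *Ccr2*, the cells left in *Ccr2*+ (95 and 230) had more C1q in HFD (4087 CPM against 5699 CPM, log2 0.48), the opposite sign.

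The chains did not move in proportion. *C1qb* made up 34.9% of C1q UMIs in *Lyve1*+ and 44.5% in *Lyz1*-high cells of CD, and 39.2% and 48.7% in HFD. Its share was thus higher in *Lyz1*-high cells in both libraries and higher in HFD in both gates, with intervals of at most 1 percentage point to either side. Over cells drawn to 1000 UMIs the Spearman correlation of *C1qa* with *C1qb* was 0.60 in 2312 CD cells and 0.66 in 1754 HFD cells, a description within 1 library each.

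At this fixed depth, which left out 52 CD and 267 HFD cells, 92.3% of CD and 83.4% of HFD cells held a C1q UMI. In *Lyve1*+ cells the share was 98.5% and 97.4%, with a median of 14 C1q UMIs per cell in CD and 10 in HFD. In *Lyz1*-high cells it was 80.4% and 68.6%, with a median of 3 and 1 and a 90th percentile of 15.6 and 13. The *Lyve1*+ gate differed as a whole between libraries. Many *Lyz1*-high cells held little or no C1q, while a minority held as much as *Lyve1*+ cells. With all UMIs counted, 95.3% of CD and 74.5% of HFD *Lyve1*+ cells held a *Folr2* UMI (1931 and 794 CPM). The *Lyve1*+ gate was not split by *Folr2*. Of the *Lyz1*-high cells 22.2% in CD and 8.04% in HFD were themselves *Lyve1*+, and these were not set apart here. Without thinning, 99.5% of CD and 96.3% of HFD cells had a C1q UMI, beside 8 of the 9 endothelial CD barcodes (88.9%, 51.8 to 99.7%, median 4649 UMIs). A UMI alone therefore did not tell cells that make C1q from barcodes that hold it otherwise. Whether the latter held free RNA or were doublets was not tested.

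**Figure D2:**
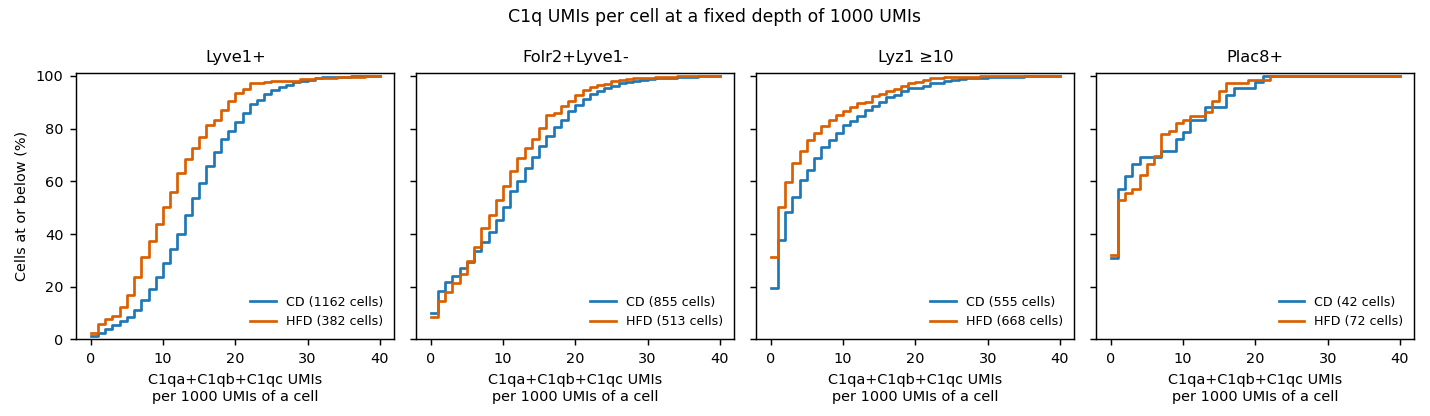
Cumulative share of cells (%) by the number of *C1qa*, *C1qb* and *C1qc* UMIs among 1000 UMIs drawn from each cell, in 4 gates of the CD and HFD libraries. The HFD curve lies to the left of the CD curve in *Lyve1*+ cells (median 10 against 14) and in *Lyz1* ≥10 cells (median 1 against 3), and the curves run close in *Folr2*+*Lyve1*- cells (median 9 against 10).

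*Folr2* itself, a folate receptor gene of resident ATMs, was at 1138 CPM in CD and 288 CPM in HFD. Among *Lyz1*-high cells 65.8% in CD but 23.7% in HFD held a *Folr2* UMI, and with or without one the C1q sum was close between diets. It was 6902 CPM in CD and 6653 CPM in HFD in *Lyz1*-high cells with *Folr2* (log2 -0.05), and 3085 and 3297 CPM in those without (0.10). With *Folr2* read among 1000 drawn UMIs the values were 9148 and 8270 CPM with it (-0.15) and 4781 and 3940 CPM without (-0.28), so the size of the remaining difference depended on the depth at which *Folr2* was called.

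Over the kept cells with at least 1000 UMIs (2312 in CD and 1754 in HFD), C1q rose with the *Folr2* UMIs found among 1000 drawn. In cells with 0, 1, 2 to 3 and at least 4 of them the C1q sum was 6626, 12303, 15776 and 17569 CPM in CD and 5259, 11017, 13989 and 14669 CPM in HFD. HFD cells were lower in each bin, by 0.33, 0.16, 0.17 and 0.26 on the log2 scale, less than the 0.73 of the whole library. The latter also includes the cells under 1000 UMIs.

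**Figure D3:**
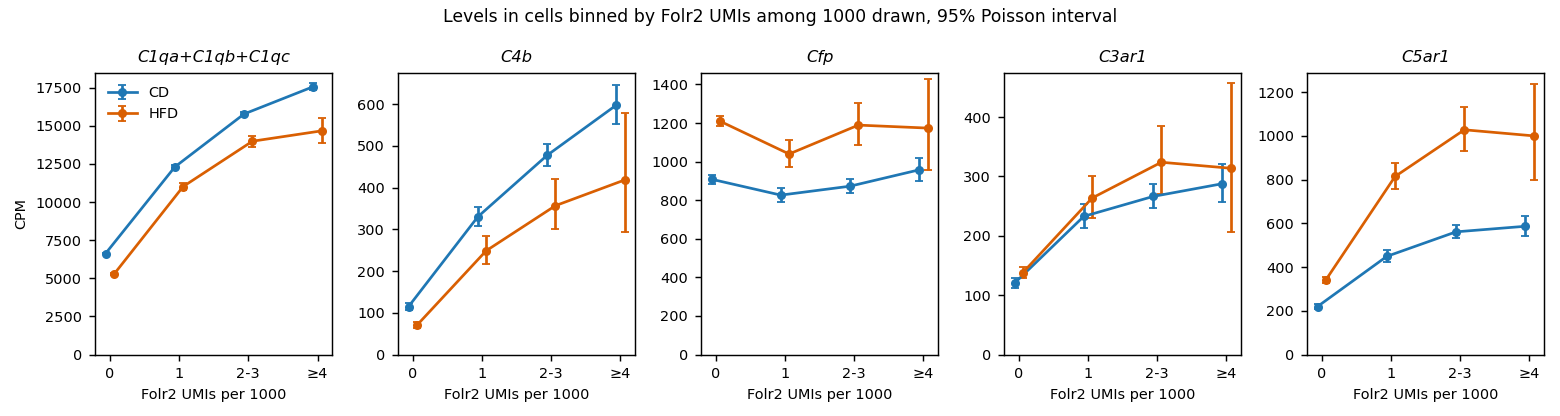
CPM of the C1q sum, *C4b*, *Cfp*, *C3ar1* and *C5ar1* in cells binned by *Folr2* UMIs among 1000 drawn UMIs, for CD and HFD, with exact 95% Poisson intervals. C1q, *C4b* and *C5ar1* rose with *Folr2*, while *Cfp* stayed between 826 and 958 CPM in CD and between 1040 and 1210 CPM in HFD. The values differed in one direction in every bin for C1q and *C4b* (lower in HFD) and for *Cfp* and *C5ar1* (higher in HFD). In the bin of at least 4 UMIs, with 33 HFD cells, the intervals of the diets overlapped for *Cfp* and *C4b*.

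*C4b*, which encodes complement C4 of the classical and lectin pathways, lies at chr17:34728380-34743882. It was at 279 CPM in CD and 119 CPM in HFD, a log2 ratio of -1.23 (-1.33 to -1.13). Its near-identical copy *C4a* is not among the genes of the count table, so reads that fit both genes are uncertain. *C4b* was lower in HFD in 6 of 6 gates, from -0.26 in *Folr2*+*Lyve1*- (163 and 136 CPM) to -1.61 in *Ccr2*+ cells (131 and 43.1 CPM), though in *Plac8*+ cells it rested on 48 and 38 UMIs and turned to 0.26 when each cell had equal weight.

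*C4b* fell steeply from the resident gates. *Timd4*+ cells held 572 CPM in CD and 442 CPM in HFD, *Lyve1*+ cells 469 and 258 CPM, and *Lyz1*-high cells 72.0 and 36.3 CPM. The CD value of *Lyz1*-high cells was no higher than the 85.3 CPM (4 UMIs, 23.2 to 218) of the 9 endothelial barcodes, and so was not distinguishable from background at this depth. It also moved with the gene number of a cell, at 829 CPM in 341 CD cells with under 1000 genes and 255 CPM in the rest, and at 444 CPM in 825 such HFD cells and 70.2 CPM in the rest. Its level in *Timd4*+ HFD cells depended on few cells, being 1307 CPM in the 8 cells with a UMI of *Prg4*, a gene of peritoneal macrophages, and 231 CPM in the other 64. The part of these cells and of depth in the *C4b* ratios was not tested.

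*C3*, the central component that both pathways cleave (chr17:57203970-57228136), and *Cfb*, the factor B gene (chr17:34856374-34862518), were rare. *C3* had 81 UMIs in 43 CD cells (6.59 CPM) and 32 UMIs in 20 HFD cells (3.96 CPM), a log2 ratio of -0.74 with an interval from -1.38 to -0.13. The 5 CD cells with most *C3* held 49.4% of its UMIs, and 31 of the 81 lay in 60 cells with *Dcn*, a fibroblast gene, at 89.7 CPM against 4.19 CPM in cells without it. Without cells holding UMIs of other cell types the ratio was 0.08, so no direction is read for *C3*.

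*C3* peaked in *Plac8*+ CD cells, at 106 CPM from 29 UMIs in 7 cells, against 5.06 CPM from 2 UMIs in HFD. One of these CD cells held 13 of the 29 UMIs together with 477 UMIs of *Dcn* and 34 of *Col3a1* among its 9218 UMIs. Without it the CD level was 60.6 CPM (34.7 to 98.5). In *Timd4*+ HFD cells, 5 of the 6 *C3* UMIs lay in cells with *Prg4*.

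*Cfb* had 136 UMIs in 129 CD cells (11.1 CPM) and 32 UMIs in 29 HFD cells (3.96 CPM), a log2 ratio of -1.48 (-2.09 to -0.92), and unlike *C3* it was spread thinly over cells. It was highest in *Timd4*+ (22.0 CPM) and *Lyve1*+ cells (19.0 CPM) of CD and low in *Lyz1*-high cells (2.52 CPM). In HFD the levels were 17.8, 7.99 and 1.52 CPM, from 5, 11 and 7 UMIs. Its ratio was below 0 in the 5 gates that had a UMI in both libraries, with intervals below 0 in *Lyve1*+ (-1.25) and *Ccr2*+ cells (-2.21), and *Plac8*+ cells held 4 UMIs in CD and 0 in HFD. The gene *Gm20547* overlaps *Cfb* on its strand, so its count is uncertain.

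*Cfp*, the properdin gene (chrX:20925454-20931555), went the other way. It was at 888 CPM in CD and 1177 CPM in HFD, a log2 ratio of 0.41 (0.37 to 0.45), which is under 1.5-fold. It was higher in HFD in 6 of 6 gates, with every interval above 0, from 0.34 in *Plac8*+ (652 and 827 CPM) to 0.78 in *Timd4*+ cells (819 and 1405 CPM). The *Timd4*+ ratio was the only one past 1.5-fold, and was 0.62 without cells holding *Prg4* or *Gata6*.

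*Cfp* also differed from the rest in its distribution. In CD it ran from 652 CPM in *Plac8*+ to 984 CPM in *Lyz1*-high cells and in HFD from 827 CPM in *Plac8*+ to 1405 CPM in *Timd4*+ cells, ranges far narrower than those of C1q. *Lyz1*-high cells held slightly more than *Lyve1*+ cells, 1022 against 877 CPM in CD and 1310 against 1016 CPM in HFD once cells in both gates were left out. At 1000 UMIs, 52.6% of CD and 62.8% of HFD cells had a *Cfp* UMI. Across cells its correlation with the C1q sum was 0.10 in CD and 0.02 in HFD (Spearman). Those of *C5ar1*, *C3ar1* and *C4b* with the C1q sum were 0.28, 0.17 and 0.16 in CD and 0.38, 0.22 and 0.19 in HFD.

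The anaphylatoxin receptors resembled C1q in being higher in *Lyve1*+ than in *Lyz1*-high cells, but not in their change with diet. Unlike C1q, they had their lowest values in *Lyz1*-high and not in *Plac8*+ cells in both libraries. For *C5ar1* in CD and *C3ar1* in HFD the *Plac8*+ values rested on 52 and 45 UMIs, and the intervals of these gates overlapped. *C5ar1*, the C5a receptor gene (chr7:16246743-16259540), was at 370 CPM in CD and 441 CPM in HFD (log2 0.26, 0.19 to 0.32). *Lyve1*+ cells held 503 and 729 CPM, *Folr2*+*Lyve1*- cells 331 and 635 CPM, *Lyz1*-high cells 145 and 182 CPM and *Plac8*+ cells 190 and 410 CPM. The CD values of the last pair lay within the interval of the endothelial CD barcodes (107 CPM from 5 UMIs, 34.6 to 249). The ratio was above 0 in 6 of 6 gates and its interval in 5, the exception being *Timd4*+ cells (523 and 596 CPM, 0.19, -0.06 to 0.43). It was past 1.5-fold in *Folr2*+*Lyve1*- (0.94) and *Plac8*+ cells (1.11).

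Binned by *Folr2*, *C5ar1* was higher in HFD by 0.64, 0.86, 0.87 and 0.77 on the log2 scale in the bins from 0 to at least 4 UMIs, more than the 0.26 of the whole library. The bins leave out cells under 1000 UMIs, which the whole library includes. In *Lyve1*+ cells at 1000 UMIs, 37.0% of CD and 52.9% of HFD cells held a *C5ar1* UMI. The gene also moved with depth, at 856 CPM in HFD cells with under 1000 genes and 379 CPM in the rest (537 and 363 CPM in CD). Among cells with 3000 to 9000 UMIs the whole-library ratio was -0.03 and that of *Folr2*+*Lyve1*- cells 0.73.

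*C3ar1*, the C3a receptor gene (chr6:122847138-122856161), showed little difference as a whole, at 188 CPM in CD and 165 CPM in HFD (log2 -0.19, -0.29 to -0.09). It was lower in HFD in *Ccr2*+ (158 and 132 CPM, -0.25) and *Plac8*+ cells (179 and 114 CPM, from 49 and 45 UMIs, -0.66) and higher in *Folr2*+*Lyve1*- cells (175 and 228 CPM, 0.38). With each cell in 1 gate the *Ccr2*+ ratio of *C3ar1* had the opposite sign, at 0.96 (47 and 150 UMIs). In the *Timd4*+, *Lyve1*+ and *Lyz1*-high gates its interval held 0. *Lyve1*+ cells (243 and 225 CPM) stood above *Lyz1*-high cells (92.6 and 96.4 CPM), and the latter did not stand above the 107 CPM (5 UMIs) of endothelial CD barcodes.

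**Figure D4:**
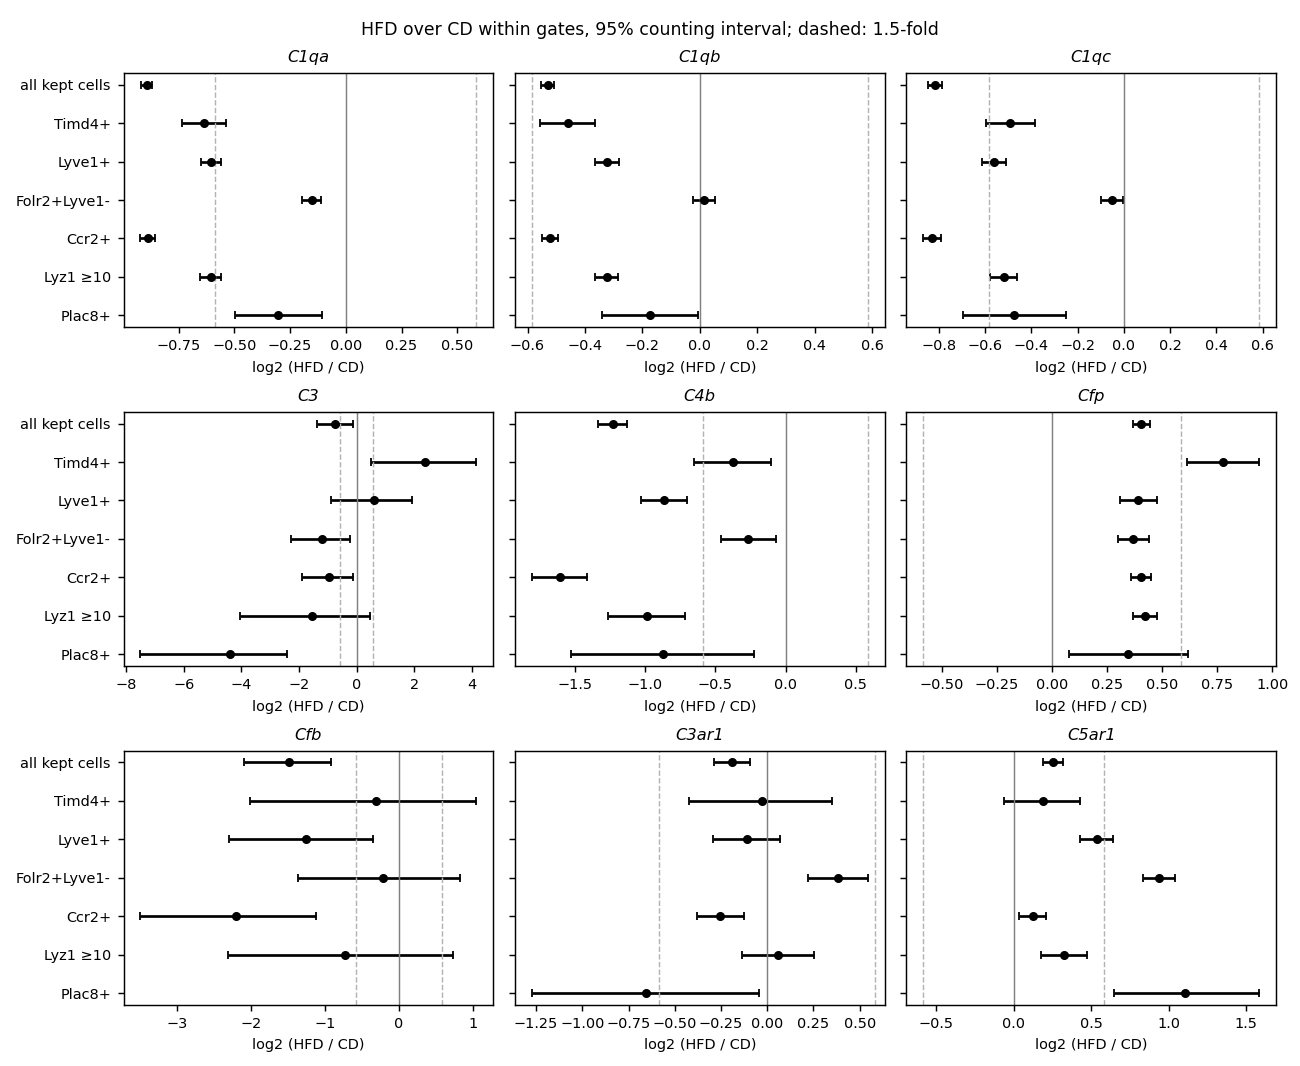
Log2 ratio of HFD over CD of each gene in all kept cells and in each gate, with exact 95% intervals for counting error, the dashed lines marking 1.5-fold and each panel having its own axis range. *Cfp* and *C5ar1* are to the right of 0 in all rows, *C1qa*, *C1qc* and *C4b* to the left in all rows, and *Cfb* in *Plac8*+ cells is not drawn because HFD had 0 UMIs.

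Counted over the set, 5 of the 9 genes were at least 1.5-fold lower in HFD over all kept cells (*C1qa*, *C1qc*, *C3*, *C4b* and *Cfb*, or 4 without cells holding UMIs of other cell types, where *C3* was not) and 0 were as much higher, beside 7.11% of 8708 genes with at least 100 UMIs that were lower and 3.8% that were higher. The median log2 ratio was -0.74 over the 9 genes and -0.01 over the 8708. The former was the value of *C3* itself, for which no direction is read, and the next toward 0 was *C1qb* at -0.53. The 9 genes also include the 3 C1q chains. Within gates the counts lower and higher were 1 and 2 in *Timd4*+ (14% and 5% of genes tested), 3 and 1 in *Lyve1*+ (6.8% and 4.79%), 1 and 1 in *Folr2*+*Lyve1*- (4.48% and 4.89%), 5 and 0 in *Ccr2*+ (6.71% and 3.08%), 4 and 0 in *Lyz1*-high (4.67% and 2.99%) and 3 and 1 in *Plac8*+ cells (5.75% and 5.4%). The calls of *C3* and *Cfb* rested on 2 to 102 UMIs per library. Among members with at least 100 UMIs in the gate, as the shares require, the counts lower and higher were 1 and 1 of 7 in *Timd4*+, 3 and 0 of 8 in *Lyve1*+, 0 and 1 of 7 in *Folr2*+*Lyve1*-, 3 and 0 of 7 in *Ccr2*+, 2 and 0 of 7 in *Lyz1*-high and 0 and 1 of 5 in *Plac8*+ cells.

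Between gates of 1 library, with cells of both gates left out, 8 of the 9 genes were at least 1.5-fold higher in *Lyve1*+ than in *Lyz1*-high cells in CD and in HFD, beside 25.3% and 23.4% of genes tested, the exception being *Cfp*. With members under 100 UMIs left out, as in these shares, it was 6 of 7 in both libraries. In CD the log2 ratios were 1.87 for *C1qa*, 1.21 for *C1qb*, 2.05 for *C1qc*, 3.47 for *C4b*, 4.33 for *Cfb* (94 and 4 UMIs), 1.74 for *C3ar1* and 2.16 for *C5ar1*. In HFD they were 1.89, 1.23, 1.99, 3.46, 3.02 (9 and 5 UMIs), 1.59 and 2.48 in that order. *C3* rested on 13 and 4 UMIs in CD and 7 and 3 in HFD. The median depth was 3800 against 7923.5 UMIs in CD and 2064 against 6438 UMIs in HFD, and TMM scaling, which takes genes as unchanged on average, would lower each ratio by 0.23 in CD and 0.34 in HFD and take *Cfp* to -0.70 in HFD, past 1.5-fold lower.

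*Folr2*+*Lyve1*- cells compared with *Lyz1*-high cells gave the same 8 genes (background 15.1% in CD and 19.6% in HFD), with the C1q sum higher by 1.27 in CD and 1.70 in HFD on the log2 scale and *C5ar1* by 1.97 and 2.60. *Ccr2*+ cells had 7 genes at least 1.5-fold lower than *Ccr2*- cells in both libraries (background 16.8% and 19.4%), all but *C1qb* and *Cfp*. *C4b* was lower there by 2.28 in CD and 3.08 in HFD on the log2 scale and *C5ar1* by 0.95 and 1.42. With each cell in 1 gate the HFD ratios of *C5ar1* and *C3ar1* were 0.014 and 0.17. That setting left 230 of the 1131 HFD *Ccr2*+ cells in the gate and set them against all other cells, the remaining *Ccr2*+ cells included. It therefore does not check *Ccr2*+ against *Ccr2*- cells. The *C3* ratio of CD turned from -1.03 to 0.38 without cells holding *Dcn*.

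*Plac8*+ cells without *Lyve1* (33 and 64 cells) had lower levels than *Lyve1*+ cells without *Plac8* in 5 genes in CD and 6 in HFD (background 29.7% and 17.5%), with the C1q sum at 3139 against 14400 CPM and at 3231 against 10331 CPM. *C3* was higher in *Plac8*+ cells in CD (139 against 3.39 CPM), the only gene so called (background 15.6%). *Timd4*+ and *Timd4*-*Lyve1*+ cells were alike in C1q, at 14155 and 14123 CPM in CD and 9796 and 10102 CPM in HFD. There 1 gene in CD (*C3*, 7 and 11 UMIs) and 3 in HFD (*C3*, *Cfb* and *C4b*) were at least 1.5-fold higher in *Timd4*+ cells (background 1.42% and 3.11%). With members under 100 UMIs left out, the counts were 6 of 7 in both libraries for *Folr2*+*Lyve1*-, 6 of 8 in CD and 5 of 7 in HFD for *Ccr2*+, 5 of 8 and 6 of 7 lower and 0 higher for *Plac8*+, and 0 of 8 and 1 of 7 for *Timd4*+ cells. The *C4b* ratio of HFD, 0.87, was -0.08 without cells holding *Prg4* or *Gata6*.

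The libraries differed in makeup, here the share of UMIs from each gate, and whole-library ratios changed when these shares were held fixed. With each cell in 1 gate, *Lyz1*-high cells gave 38.0% of CD and 54.9% of HFD UMIs and *Lyve1*+ cells 25.1% and 10.0%. Cells in no gate were 1.82% of CD and 13.5% of HFD cells (medians of 1361 and 1020.5 UMIs), with C1q at 5444 and 8030.5 CPM. As gates depend on depth, the shares do not tell fewer cells of a type from less RNA per cell. With the HFD levels of each gate weighted by the CD shares of UMIs, the HFD over CD log2 ratio of the C1q sum was -0.34 in place of -0.73, that of *C4b* -0.46 in place of -1.23, that of *C3ar1* 0.17 in place of -0.19 and that of *C5ar1* 0.72 in place of 0.26. *Cfp* barely moved (0.38 in place of 0.41). Under this weighting *Cfb* was the only gene at least 1.5-fold lower and *C5ar1* the only one as much higher. *Cfb*, at -0.60 and with 32 UMIs in HFD, was barely past that line.

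Of 46 other complement genes, 26 had under 20 UMIs, 14 of them with none, among them *Hc*, which encodes C5, and *C9*, both named after their counts were seen. Of the 19 measured, 8 were at least 1.5-fold lower in HFD and 0 higher, beside 11.9% and 6.28% of all genes with at least 20 UMIs. In *Lyve1*+ compared with *Lyz1*-high cells 10 were higher and 2 lower in CD (33.2% and 12.5% of the same genes) and 9 and 3 in HFD (35.3% and 12.4%). Among the 8, *Serping1*, named after its counts were seen, had 56 of its 58 CD UMIs in cells with *Dcn*. *Cfd*, also among the 8, was 1 of the 5 adipocyte markers, and whether its UMIs came from these cells was not tested. *Fcna*, the ficolin A gene of the lectin pathway, was at 437 CPM in CD and 240 CPM in HFD (log2 -0.86). It was far higher on the resident side, at 938 CPM in *Lyve1*+ and 57.1 CPM in *Lyz1*-high cells of CD. *Vsig4*, a receptor for C3b fragments, was lower in HFD too (8.22 and 3.22 CPM, -1.35), as was *C1ra*, a protease of the C1 complex (7.41 and 1.98 CPM, -1.90).

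The integrin chains of complement receptors 3 and 4 were not 1.5-fold lower in HFD. *Itgam* was at 229 CPM in CD and 297 CPM in HFD (log2 0.38) and *Itgb2* at 190.4 and 248 CPM (0.38). *Itgax* was at 30.4 and 27.8 CPM (-0.13, with an interval from -0.37 to 0.12). It was at 3.73 CPM in *Lyve1*+ and 55.7 CPM in *Lyz1*-high cells of CD, the reverse of *C5ar1*, while *C5ar2*, the other C5a receptor gene, followed *C5ar1* in its gradient (32.2 and 5.71 CPM in CD) but not in its direction with diet (21.4 CPM in CD and 18.1 CPM in HFD, with an interval of the log2 ratio from -0.55 to 0.05).

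**Figure D5:**
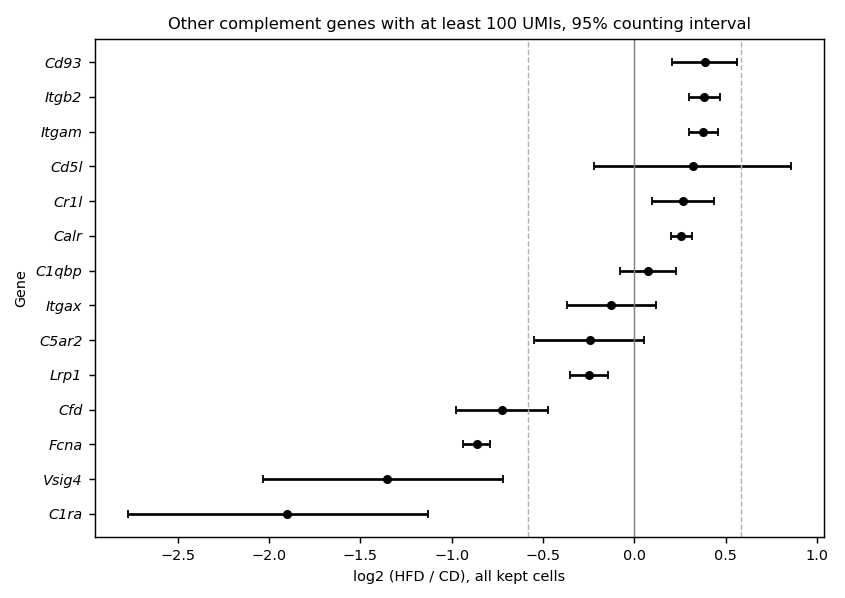
Log2 ratio of HFD over CD in all kept cells for 14 of the 15 other complement genes with at least 100 UMIs, with exact 95% intervals for counting error and dashed lines at 1.5-fold. *C1ra*, *Vsig4*, *Fcna* and *Cfd* lie below the lower line (-1.90 to -0.72), and no gene shown lies above the upper line, the highest being *Cd93* at 0.38.

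Over the 12 points of 6 gates in 2 libraries, which share cells and libraries, the genes whose log2 CPM ran most like the C1q sum were *Egr1* (Pearson r 0.98), *Eps15*, *Ap1b1*, *Gas7* and *Psd3*. *C4b* ran most like *Sulf2* (0.99), *Cd209b*, *mt-Atp6*, *Itsn1* and *Ctsa*, and *C5ar1* most like *Cd63* (0.96), *Grina*, *Ier5*, *Fos* and *Rtn4*. For *C3ar1* the nearest included *Scpep1* (0.97), *Ctsc*, *Zfp36l1* and *Man1a*. For *Cfp* they were *Ift20* (0.97), *Nfkbia*, *Ecm1*, *Btg2* and *Fam46a*. These are descriptions over 2442 to 2444 genes with at least 1000 UMIs.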

How the data were processed

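The deposited values are raw UMI counts for each gene in each barcode, which the authors made with Cell Ranger 3.0.2 (named in the submitters' processing notes) on mm10 with Ensembl release 93, without normalization. Libraries were prepared with the 10x 3' chemistry, in which capture differs between genes, so levels were compared between cells and not between genes. The 9 complement genes, the gates and the gene lists were chosen with earlier results of these data known.

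Cells with 200 to 3500 genes and at most 10% mt- UMIs were kept and gated by at least 1 UMI of the gene named, or 10 UMIs of *Lyz1*. UMIs were summed over cells and given as CPM with exact Poisson intervals, ratios as log2 with exact conditional binomial intervals and shares with Clopper-Pearson intervals, all at 95%. With 1 library per diet no test was made, and a gene was called at 1.5-fold, set beside all genes with at least 100 UMIs. Shares of cells used 1000 UMIs drawn per cell. All 9 genes were named in each comparison, of 46 other complement genes those with at least 100 UMIs, and 5 genes per pattern by Pearson's r. Comparisons between gates left out cells in both gates where these overlapped.

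Scrublet (in scanpy 1.11.5) called 0 and 2 doublets by its own threshold and had thus not worked, so doublets were kept, and an alternative removed the 159 CD and 80 HFD barcodes of highest score (0.8% per 1000 barcodes). Other alternatives changed the cell filters, scaling, depth, gate overlap, makeup of the libraries and cells of other types. Removal of cells with *Dcn*, or with *Prg4* or *Gata6*, scaling without *Retnla* and cells of 3000 to 9000 UMIs were chosen after seeing the data. The computation ran in Python 3.11.15 (pandas 2.3.3, scipy 1.17.1, numpy 2.4.6), and the intervals were tested on simulated data. These were Poisson draws of library totals, as the intervals assume, so they check the computation and not the clustering of UMIs in cells. Gene positions are those of the GRCm38 annotation, promoter windows those of RefSeq on GRCm38.p6. Some genes that these rules named are not reported here.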

Additional observations from a re-analysis of the deposited data

Results flagged for a closer look

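*C3* differed in its HFD over CD direction between gates, with log2 ratios of 2.36 in *Timd4*+, -1.19 in *Folr2*+*Lyve1*-, -0.97 in *Ccr2*+ and -4.39 in *Plac8*+ cells, whose 95% counting intervals all leave out 0. The difference between gates was not tested, and the values rest on 2 to 57 UMIs per library. The *Folr2*+*Lyve1*- value was 0.070 without cells holding UMIs of other cell types and 0.14 in cells of 3000 to 9000 UMIs, 5 of the 6 *Timd4*+ HFD UMIs lay in cells with *Prg4*, and 13 of the 29 *Plac8*+ CD UMIs lay in 1 cell with *Dcn*. *C3ar1* was higher in HFD in *Folr2*+*Lyve1*- cells (0.38) and lower in *Ccr2*+ (-0.25) and *Plac8*+ cells (-0.66), a difference that was not tested either, and 65.1% of the *Folr2*+*Lyve1*- cells of CD were also *Ccr2*+. With each cell in 1 gate its *Ccr2*+ value was 0.96.

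Barcodes over the limit of 10% mitochondrial UMIs, of which only those up to 20% entered an alternative, held more than 3 UMIs of 9 of the 9 genes in CD and of 9 of the 9 in HFD. In the 2043 such CD barcodes (median 896 UMIs) the C1q sum was at 7700 CPM and *C4b* at 824 CPM, and in the 1120 HFD barcodes (median 739 UMIs) they were at 5056 and 443 CPM. *C4b* was thus higher there than in the kept cells of the same library (279 and 119 CPM), while C1q was lower than in these.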

How the results depend on the processing

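No paired analysis was possible because each diet had 1 library, which also leaves no replicate to leave out. Depth limits *C3* and *Cfb* most, which had 32 UMIs each in HFD. Of 140 HFD over CD values in all kept cells under alternatives, 90 stayed within the counting interval and 47 moved past it. The other 3 changed sign from a ratio of at least 1.5-fold. Within gates these counts were 709, 163 and 10 of 882, and between gates 1088, 379 and 9 of 1476. Smaller ratios that changed sign were not counted as such. Among them were *C1qb* and *C3ar1* in *Ccr2*+ cells, from -0.52 and -0.25 to 0.46 and 0.96 with each cell in 1 gate. The cause of these changes was not tested.

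Weighting HFD gates by the CD makeup gave 1 gene at least 1.5-fold lower and 1 higher in place of 5 and 0. With each cell in 1 gate, the calls within the 6 gates were 9 higher and 9 lower in place of 5 and 17, and those between HFD gates 8 lower in place of 13. The latter count included the *Ccr2*+ comparison, whose second group then held the *Ccr2*+ cells of other gates. Without cells holding *Prg4* or *Gata6*, 3 within-gate values were at least 1.5-fold higher. TMM scaling made 1 gene, *Cfp*, lower in *Lyve1*+ than in *Lyz1*-high cells of HFD. With limits of 20 and 500 UMIs in place of 100, 701 and 122 genes of all were higher in HFD in place of 331 and 1329 and 215 lower in place of 619.

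Log2 ratios of at least 1.5-fold that changed sign were mostly those of *C3*. HFD over CD in all kept cells it was 0.077 without other cell types, 0.33 in cells of 3000 to 9000 UMIs and 0.11 with the CD makeup. In *Folr2*+*Lyve1*- cells it was 0.070 and 0.14 under the first pair of these. In *Lyve1*+ cells it was -0.64 as a mean over cells and -0.62 without *Prg4* or *Gata6*. For *Ccr2*+ over *Ccr2*- cells of CD it was 0.025 without other cell types, 0.38 without *Dcn* and 0.44 in cells of 3000 to 9000 UMIs. With each cell in 1 gate, HFD over CD in *Ccr2*+ cells was 0.43 for *C1qa*, 0.57 for *C1qc*, 1.09 for *C3* and 0.48 for the C1q sum. In this setting the cells left in *Ccr2*+ over all other cells of HFD gave 1.32 for *C3*, 0.17 for *C3ar1* and 0.014 for *C5ar1*. The other cells then included *Ccr2*+ cells of other gates, so these values do not check *Ccr2*+ against *Ccr2*- cells. *C4b* in *Plac8*+ cells was 0.26 as a mean over cells and 0 in thinned cells. In *Timd4*+ over *Timd4*-*Lyve1*+ cells of HFD, *C4b* was -0.16 in thinned cells and -0.078 without *Prg4* or *Gata6*, and *Cfb* was -0.027 without other cell types.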
